A study of Rattus norvegicus with 84 samples.

Results

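The genes described here are 30 genes of ribosome biogenesis and the transcription factor Myc, 31 in all, followed in male Sprague Dawley rats across 3 tissues, kidney, liver and gastrocnemius (Gastroc in the plots). They were chosen by symbol from a list of 32 names. The deposited tables hold 17502 loci and gave a locus for 31 of the names, counting Myc. Rrp12 had none and was not analysed here. Nhp2 had 2 loci, of which the one with the higher mean was taken.

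Total RNA was sequenced from 84 libraries, 28 per tissue. In each tissue, 10 libraries came from rats sampled at 6 months and 10 from rats sampled at 24 months, both given vehicle, and 8 from rats sampled at 24 months after RAD001. RAD001 (everolimus) is an inhibitor of mTORC1. Treatment ran for 6 weeks from an age of 4.5 months in the young group and 22.5 months in both aged groups. RAD001 was given by mouth once a week, 7 doses in total, with vehicle on the remaining days. The vehicle was the diluted microemulsion concentrate in water with methylcellulose, so every group received it. No young group was given RAD001. The labels do not say that libraries with different numbers came from separate rats, so p-values measure the spread between libraries.

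Making a ribosome begins in the nucleolus, where RNA polymerase I transcribes the long precursor of the ribosomal RNAs. Small nucleolar ribonucleoproteins then mark the precursor by methylation (box C/D) and pseudouridylation (box H/ACA). Processing factors, helicases and GTPases cut and fold it into the small and large subunits. Myc is a basic helix-loop-helix factor that binds E-box sequences as a dimer with Max, and ribosome biogenesis genes are among its best known targets. mTORC1 signalling promotes ribosome production, in part through RNA polymerase I.

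Promoter sequences are shown because E-boxes are the sites at which Myc dimers bind. RefSeq (assembly GRCr8) held a window for 27 of the 31 genes, running from 250 bases before to 50 bases after the start. Myc, Rrs1, Wdr43 and Bop1 had no entry. The E-box CACGTG, whose reverse complement is itself, was present in 8 of the 27 windows (29.6%), against 1381 of 19005 protein-coding promoters of the same length (7.27%). The 8 genes were Bysl, Ddx18, Dkc1, Fbl, Gnl3, Mybbp1a, Nop2 and Pes1. The ETS motif CCGGAAGT, searched on both strands, was present in 10 of 27 (37.0%) against 4.99% of all promoters. The NRF1 motif, a palindrome searched in its 10-base form, was present in 1 of 27 (3.7%), that of Npm1, against 1.14% of all. Of these genes, Bysl, Dkc1 and Fbl held both an E-box and an ETS motif, and in 0 of them did the matches overlap. Median GC content of the windows was 59.0% in these genes and 55.3% in all protein-coding genes. A match describes the letters and is not evidence of binding.

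The 200 bases before the start are printed for 4 genes that changed in at least 1 comparison: Ncl, the gene with the lowest p in treated kidney and no E-box in its window, and Gnl3, Ddx18 and Pes1, which have 1 each. They lie at chr9:94456084-94456283 (minus strand), chr16:6219783-6219982 (minus strand), chr13:35295973-35296172 (minus strand) and chr14:83074146-83074345 (plus strand) of GRCr8. They read 5′ to 3′ toward the start, and capitals mark the E-box. Its first base lies 25 bases before the start in Gnl3, 13 in Ddx18 and 50 in Pes1.
Ncl: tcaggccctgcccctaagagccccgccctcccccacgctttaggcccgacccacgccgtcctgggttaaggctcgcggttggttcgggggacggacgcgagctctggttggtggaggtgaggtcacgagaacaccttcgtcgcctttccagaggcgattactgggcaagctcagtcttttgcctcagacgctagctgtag
Gnl3: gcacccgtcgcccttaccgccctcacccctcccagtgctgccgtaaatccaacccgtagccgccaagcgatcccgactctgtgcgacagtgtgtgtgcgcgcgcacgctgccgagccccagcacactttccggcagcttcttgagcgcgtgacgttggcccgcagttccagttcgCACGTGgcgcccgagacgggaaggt
Ddx18: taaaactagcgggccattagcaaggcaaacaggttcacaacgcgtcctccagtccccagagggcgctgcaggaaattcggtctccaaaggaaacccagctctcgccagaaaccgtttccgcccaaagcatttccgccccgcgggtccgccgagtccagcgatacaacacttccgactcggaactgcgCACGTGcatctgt
Pes1: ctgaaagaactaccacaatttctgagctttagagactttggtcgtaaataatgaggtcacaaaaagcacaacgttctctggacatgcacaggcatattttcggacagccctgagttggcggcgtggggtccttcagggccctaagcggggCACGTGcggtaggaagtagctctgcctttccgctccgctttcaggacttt
The deposited tables place Dkc1 on chromosome 1 in rn5, whereas RefSeq places the gene of that name on chromosome X in GRCr8. The other 26 matched genes lie on the same chromosome in both, but their positions were not matched. The strand differs between the builds for Polr1b, Gar1, Imp4 and Nob1. Gar1 is at chr2:74665990-74673268 (plus strand) in rn5, and its window is at chr2:221056700-221056999 (minus strand) in GRCr8. Whether these are the same gene was not tested.

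Levels below are scaled coverage, the mean read coverage per base over a locus after a trimmed-mean scaling of the libraries of 1 tissue, so they are already per length. Changes are differences of log2(level + 0.1), which understates changes of low genes. A gene was called when its Benjamini-Hochberg adjusted p from limma, over all loci tested in the tissue, was under 0.05. Loci had to reach a level of 0.1 in at least 8 libraries. Of the 31 genes, 30 passed in kidney, 30 in liver and 29 in gastrocnemius. Gar1, a box H/ACA protein, was below the filter in all 3 tissues, and Myc was below it in gastrocnemius. Group means of the members ran from 0.0254 (Gar1, treated kidney) to 4.69 (Npm1, aged kidney). Relative depth of the libraries, read from the smallest step in the values, ran from 0.826 to 1.41.

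The tissue labels matched their markers. The summed level of 8 kidney markers was 256 to 658 in kidney libraries and at most 0.579 elsewhere. That of 8 muscle markers was 3320 to 5150 in gastrocnemius and at most 9.15 elsewhere. The 9.15 was in a treated kidney, and in the other kidney groups the highest was 0.136. The median was 1.13 in treated kidneys, against 0.0557 in young and 0.09 in aged ones. The sum of 8 liver markers was 3670 to 7480 in liver and at most 19.8 elsewhere.

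**Figure D1:**
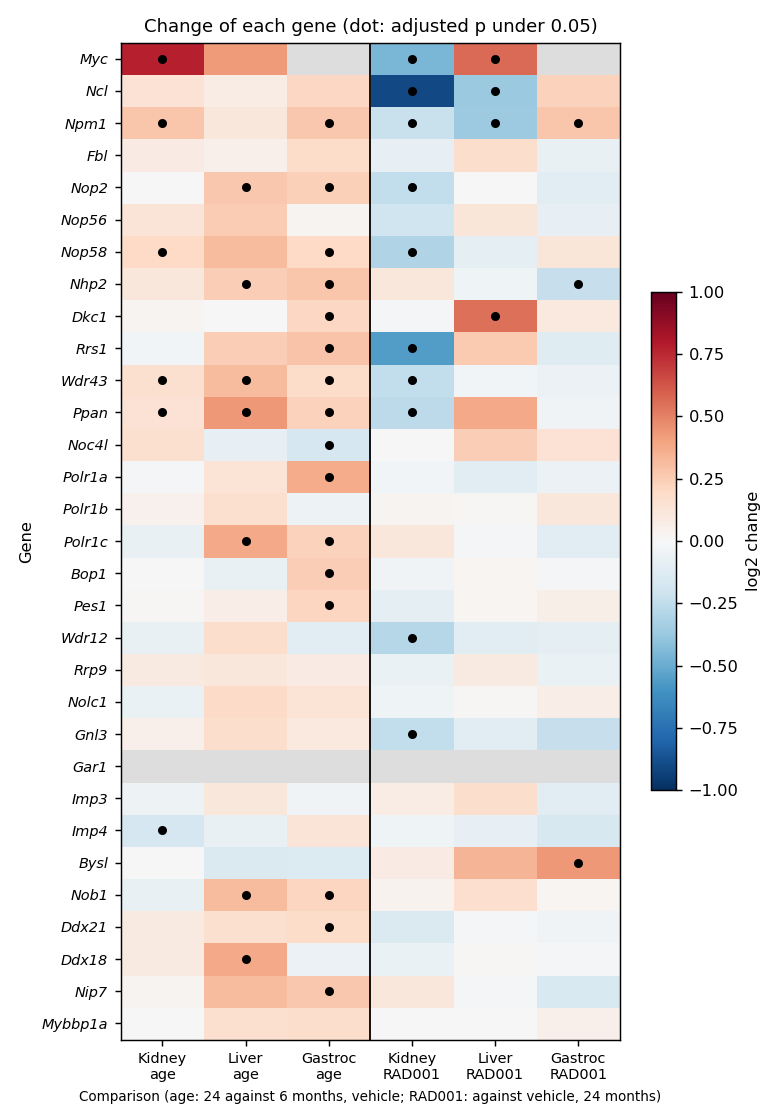
Change of each of the 31 genes (vertical axis) with age and with RAD001 in the 3 tissues (horizontal axis), as log2 change by colour; a dot marks an adjusted p under 0.05 and grey marks a gene below the filter. The kidney RAD001 column holds 10 dots, all on genes that fell, and the gastrocnemius age column holds 16, 15 of them on genes that rose.

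Myc rose with age in kidney and was then lower under RAD001, whereas in liver it was higher under RAD001 than under vehicle. The deposited tables place it at chr7:103157452-103162378 of rn5, plus strand. In young kidneys its level was 0.0542 at the lowest, 0.0671 at the median and 0.0911 at the highest. In aged kidneys it was 0.111, 0.195 and 0.319, so all 10 aged libraries lay above all 10 young ones, as did 1.75% of tested loci. In treated kidneys it was 0.0659, 0.126 and 0.145, between the other groups and overlapping both. Every young level lay under the filter value of 0.1 and every aged one above it. Myc therefore passed the filter mainly through aged and treated libraries, and its age call and non-overlap carry that selection. The age change was a rise of 0.78 ± 0.10 (log2, SE; adjusted p = 1.4e-06). Under RAD001 it fell by 0.46 ± 0.11 (adjusted p = 0.0019) and stayed 0.32 ± 0.11 above young (adjusted p = 0.029). That last call was lost (adjusted p 0.0501 to 0.0613) on leaving out treated kidney 1, 2, 8 or 9. With the level of 7SL RNA as a covariate the change under RAD001 was -0.21 and not called (adjusted p = 0.54). With that of Rn45s, the ribosomal RNA precursor locus, the change against young turned to -0.17 (adjusted p = 0.66). Treated kidneys did not overlap vehicle ones in either RNA, so such fits cannot tell its part from that of treatment. The age and RAD001 changes share the aged vehicle libraries.

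In liver, Myc was 0.0405, 0.0842 and 0.297 in young (lowest, median, highest), 0.0986, 0.163 and 0.228 in aged and 0.153, 0.268 and 0.59 in treated libraries. The groups overlapped, with 1 young library far above the other 9. Most young levels were under 0.1, so Myc passed the filter here too mainly through aged and treated libraries. The age change of 0.43 ± 0.16 missed the threshold (adjusted p = 0.069). Without that library (young liver 9) it was 0.54 with adjusted p = 0.0082. RAD001 raised it by 0.57 ± 0.17 over aged vehicle (adjusted p = 0.025) and by 0.99 ± 0.17 over young (adjusted p = 8.0e-05). Without treated liver 5 the change against aged vehicle was 0.45 (adjusted p = 0.063), and without treated liver 6 it was 0.49 (adjusted p = 0.056). With 7SL or Rn45s as a covariate it was 0.54 and 0.56 (adjusted p = 0.085 and 0.13). The RAD001 change in kidney minus that in liver was -1.02 ± 0.21 (adjusted p = 2.2e-04).

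In gastrocnemius, Myc was 0.0196, 0.0312 and 0.0512 in young, 0.0513, 0.0802 and 0.149 in aged and 0.0412, 0.0739 and 0.126 in treated libraries. All aged libraries lay just above all young ones, and treated libraries overlapped both. It was below the filter there. In a fit without the filter the age change was 0.53 (adjusted p = 7.4e-05) and the RAD001 change -0.16 (adjusted p = 0.45). On 1 scale shared by the 3 tissues, group medians ran from 0.0391 in young gastrocnemius to 0.311 in treated liver. The ranges of neighbouring groups in that order overlapped.

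**Figure D2:**
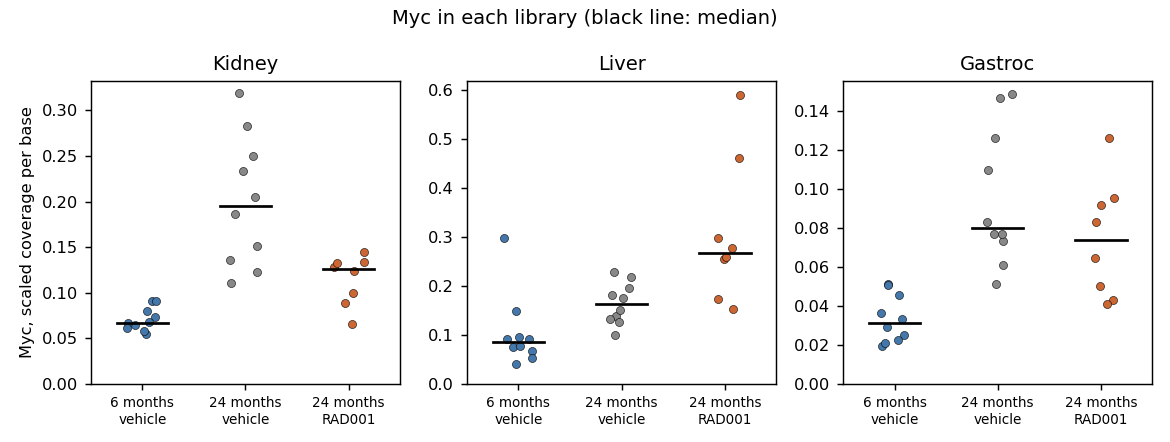
Myc level (scaled coverage per base, vertical axis, scaled within a tissue and with its own range in each panel) in each library of the 3 groups; points are libraries and black lines medians. The 10 aged kidney libraries (0.111 to 0.319) sit above the 10 young ones (0.0542 to 0.0911), and the treated liver median (0.268) is the highest of the liver medians.

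Other genes moved beside Myc. The 9 tested immediate early genes all rose with age in kidney, 4 of 7 did in liver and 5 of 8 in gastrocnemius. Of all loci, 20.8%, 7.86% and 17.0% rose with age in these tissues. Under RAD001, Atf3 and Btg2 fell in kidney, where 19.1% of loci fell, and Jun and Ier2 rose in liver, where 7.62% rose. No other tested one was called under RAD001 in any tissue. The sum of 12 immediate early genes was 3.4 to 6.25 in young, 3.69 to 9.17 in aged and 6.07 to 12.4 in treated livers. In kidney it was 5.63 to 8.11, 7.93 to 12.9 and 8.03 to 11.5 in that order. Of 12 tested macrophage markers, 12 rose with age in kidney and 11 fell under RAD001. The summed level of all 14 macrophage loci, tested or not, was 6.02 to 8.8 in young, 9.16 to 24.9 in aged and 8.25 to 14.1 in treated kidneys. Of 9 tubular injury markers, 9 rose with age in kidney and 7 fell under RAD001, with sums of 29.1 to 49.9, 57.3 to 446 and 51.6 to 124 in the same order. The 9 tested T cell markers and the 7 fibroblast markers all rose with age in kidney, and 8 and 6 of them fell under RAD001. T cell marker sums, over all 10 loci, were 0.957 to 1.38, 1.51 to 4.63 and 1.13 to 2.55. Fibroblast marker sums were 10.9 to 15.4, 15.3 to 29.1 and 12.8 to 19.7. The part of these in the Myc result was not tested. In whole tissue, a change in the number of cells of a type and a change in RNA per cell cannot be told apart.

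In kidney, 10 of the 30 tested genes fell under RAD001 and 0 rose by limma (12 lower and 0 higher at an unadjusted p under 0.05). Of all 10447 tested loci, 37.4% were called, 19.1% lower and 18.3% higher. Their median change was -0.07, beside 0.00015 over all tested loci. With upper-quartile scaling 14 fell, and the share of all calls that were higher went from 49.0% to 33.5%. The 10 falls ran from 0.22 (Npm1) to 0.90 (Ncl) on the log2 scale. They were 3 abundant nucleolar proteins (Ncl, Npm1 and Gnl3), 4 large subunit factors (Nop2, Rrs1, Ppan and Wdr12), 1 box C/D protein (Nop58), 1 small subunit factor (Wdr43) and Myc.

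Ncl, nucleolin, an abundant nucleolar protein that binds nascent pre-rRNA, changed most. Its level was 0.569, 0.687 and 0.823 in young kidneys (lowest, median, highest), 0.65, 0.779 and 0.934 in aged and 0.292, 0.348 and 0.457 in treated kidneys. Every treated library lay below every aged one, as in 1.87% of tested loci, and below every young one, as in 3.15%. Ncl fell by 0.90 ± 0.07 under RAD001 (adjusted p = 3.8e-10) and was 0.76 ± 0.07 below young (adjusted p = 1.3e-08). The age change was 0.14 ± 0.07 (adjusted p = 0.10). The locus lies at chr9:93097881-93106405 of rn5, minus strand.

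Rrs1, a factor that helps bring the 5S particle into the large subunit, was next. Its level was 0.423, 0.571 and 0.63 in young, 0.488, 0.55 and 0.642 in aged and 0.277, 0.337 and 0.455 in treated kidneys. All 8 treated libraries lay below all 10 aged ones, and 1 young library (0.423) fell within the treated range. Rrs1 fell by 0.55 ± 0.07 (adjusted p = 5.3e-07) and was 0.58 ± 0.07 below young (adjusted p = 1.7e-07).

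Wdr43, a small subunit factor that acts with the early pre-rRNA, was 0.646, 0.733 and 0.847 in young, 0.78, 0.825 and 0.896 in aged and 0.645, 0.676 and 0.726 in treated kidneys. Treated libraries did not overlap aged ones. It fell by 0.24 ± 0.04 (adjusted p = 8.9e-05) after a rise with age of 0.16 ± 0.04 (adjusted p = 0.0022). Ncl, Rrs1 and Wdr43 were thus the 3 of 30 tested genes whose treated and aged libraries did not overlap. All were lower, as were 1.87% of all tested loci.

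Nop58, a core protein of box C/D particles, was 0.466, 0.544 and 0.67 in young, 0.549, 0.643 and 0.726 in aged and 0.414, 0.518 and 0.58 in treated kidneys. The groups overlapped. It rose with age by 0.20 ± 0.06 (adjusted p = 0.0044) and fell under RAD001 by 0.30 ± 0.06 (adjusted p = 3.1e-04). The other box C/D proteins, Fbl (the methyltransferase fibrillarin), Nop56 and Rrp9, were not called in kidney.

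The other kidney falls were smaller. Wdr12 and Ppan, both large subunit factors, fell by 0.29 ± 0.07 and 0.26 ± 0.06 (adjusted p = 0.0016 for each). Gnl3, the nucleolar GTPase nucleostemin, and Nop2, a 28S rRNA methyltransferase, each fell by 0.25 (adjusted p = 0.013 and 0.0087). Npm1, the histone and ribosome chaperone nucleophosmin, fell by 0.22 ± 0.08 (adjusted p = 0.028). The Npm1 call was lost (adjusted p 0.051 to 0.0634) on leaving out treated kidney 2, 3 or 6 or aged kidney 4 or 7, and with 7SL as a covariate the direction turned (0.038, adjusted p = 0.89). Bop1 and Pes1, which form 1 complex with Wdr12, were not called. Neither were the RNA polymerase I genes Polr1a, Polr1b, Polr1c and Mybbp1a.

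**Figure D3:**
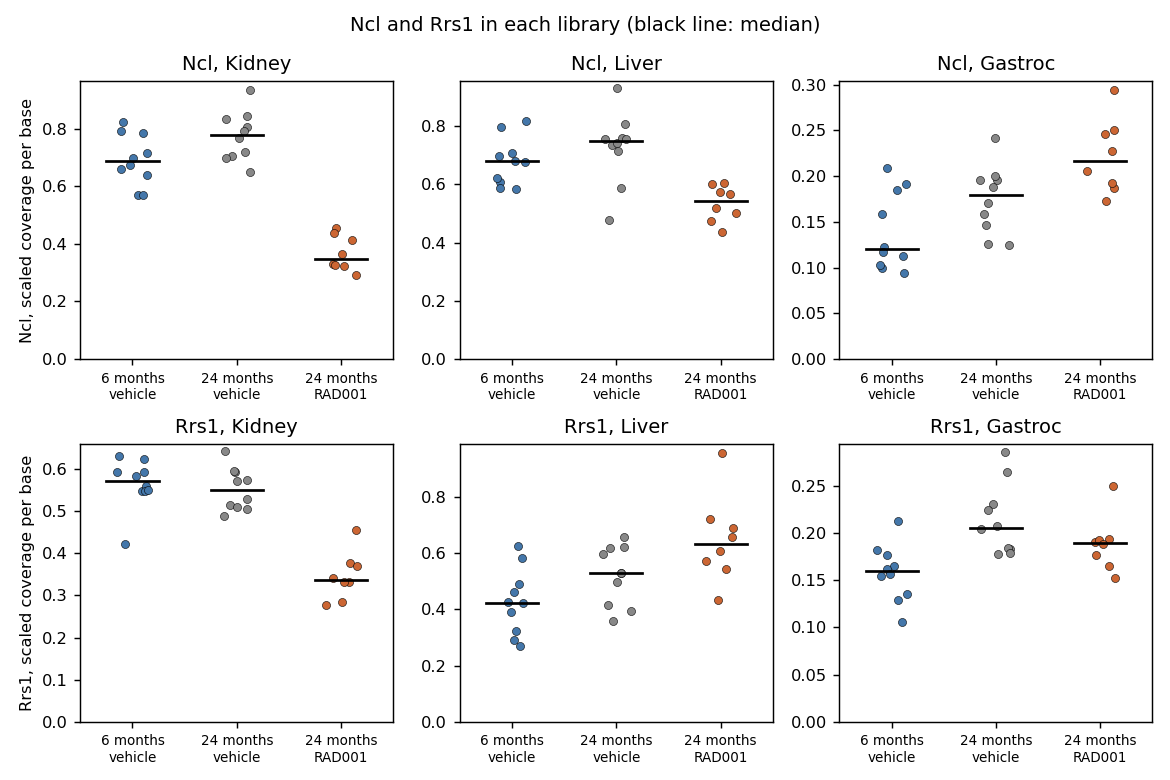
Ncl (top) and Rrs1 (bottom) level (scaled coverage per base, vertical axes with their own range in each panel) in each library of the 3 groups in kidney, liver and gastrocnemius; points are libraries and black lines medians. In kidney the treated medians were 0.348 for Ncl and 0.337 for Rrs1, below the aged medians of 0.779 and 0.55; in liver the treated Rrs1 median (0.631) was above the aged one (0.528).

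With age in kidney, 5 genes rose and 1 fell of 30, where 43.0% of loci were called, 20.8% higher and 22.2% lower. With upper-quartile scaling 11 rose and 1 fell, and the share of all calls that were higher went from 48.4% to 64.6%. Without scaling 7 rose and 0 fell by limma (11 higher and 1 lower at an unadjusted p under 0.05), with 62.8% of all calls higher. The 5 risers were Myc, Wdr43, Nop58, Npm1 and Ppan, and each of them was lower under RAD001. Both comparisons use the aged vehicle libraries, so these opposite signs are not read as a result. Npm1 was 2.99, 3.91 and 4.62 in young, 3.72, 4.76 and 5.46 in aged and 3.5, 3.87 and 4.66 in treated kidneys, with overlapping groups. It rose by 0.27 ± 0.07 (adjusted p = 0.0033). Ppan rose by 0.15 ± 0.06 (adjusted p = 0.042), a call that was lost on leaving out any 1 of 8 vehicle libraries (adjusted p 0.0509 to 0.0898). These were young 4, 8, 9 and 10 and aged 1, 3, 8 and 9.

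Imp4, a protein of the U3 small nucleolar particle, was 2.4, 2.91 and 3.07 in young, 2.13, 2.48 and 2.82 in aged and 2.23, 2.42 and 2.51 in treated kidneys. The young and aged ranges overlapped, with young kidneys the higher at the median. It fell with age by 0.17 ± 0.05 (adjusted p = 0.0036) and was 0.21 ± 0.05 below young in treated kidneys (adjusted p = 0.0017).

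Treated kidneys differed from young ones in 7 of the 30 genes, 2 higher and 5 lower, where 26.5% of loci were called, 12.0% higher and 14.5% lower. Myc and Nhp2, a box H/ACA protein (0.23 ± 0.06, adjusted p = 0.0067), were higher. Ncl, Rrs1, Wdr12, Nop2 and Imp4 were lower. Wdr12 was 0.704, 0.942 and 1.11 in young, 0.746, 0.873 and 1.05 in aged and 0.62, 0.716 and 0.765 in treated kidneys. It was 0.36 ± 0.07 lower in treated than young (adjusted p = 2.1e-04). Nop2 was lower by 0.24 ± 0.07 (adjusted p = 0.013).

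The wider pathway was counted in lists that do not overlap the 31 genes. Of 40 other small subunit factors, 13 fell and 1 rose under RAD001 in kidney, where 19.1% of loci fell and 18.3% rose. Utp3, a component of the small subunit processome, fell by 1.36 ± 0.07 (adjusted p = 4.5e-15), and Bms1, its GTPase, fell by 0.41 ± 0.05 (adjusted p = 2.1e-06). Of 49 other large subunit factors, 10 fell and 3 rose. Rrp15, needed for large subunit pre-rRNA, fell by 1.07 ± 0.08 (adjusted p = 4.1e-11), and the helicase Ddx27 fell by 0.45 ± 0.06 (adjusted p = 2.1e-06). The list medians were -0.07 and -0.05. Of 16 other genes of RNA polymerase I and its factors, 3 fell and 3 rose. Cd3eap, a polymerase I subunit, fell by 0.80 ± 0.09 (adjusted p = 8.0e-08), after a rise with age of 0.41 ± 0.08 (adjusted p = 1.6e-04). Polr2l, a subunit shared by all 3 nuclear polymerases, rose by 0.62 ± 0.07 (adjusted p = 6.0e-08). Of 11 other small nucleolar particle factors, only Tcof1, treacle, was called (-0.17 ± 0.07, adjusted p = 0.040).

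Myc partners and other Myc targets did not move as 1 group in kidney under RAD001. Of 7 tested genes of the Myc network, 2 fell and 1 rose. Mycl, a Myc paralog, fell by 0.57 ± 0.15 (adjusted p = 0.0035) after a rise with age of 0.62 ± 0.14 (adjusted p = 6.7e-04), and Max, the dimer partner, fell by 0.20 ± 0.08 (adjusted p = 0.038). Of 24 tested Myc targets outside ribosome biogenesis, 4 rose and 3 fell. Of all tested loci, 18.3% rose and 19.1% fell. The translation helicase Eif4a1 fell by 0.39 ± 0.06 (adjusted p = 7.7e-06) and the kinase Cdk4 by 0.25 ± 0.05 (adjusted p = 4.0e-04). With age, 6 of these targets rose and 10 fell, beside 20.8% and 22.2% of all tested loci. Among the genes with an E-box, 2 of 8 fell under RAD001, and among those without one 5 of 18 did.

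A pair of abundant RNAs outside the gene list moved with the kidney result. Rn45s, the ribosomal RNA precursor locus, was 432 ± 54.2 in young, 423 ± 82.2 in aged and 232 ± 22.6 in treated kidneys (mean ± SD, n = 10, 10 and 8). Reads of the precursor and of mature ribosomal RNA were not told apart at this locus, so its level is not a measure of precursor alone. 7SL RNA was 25900 ± 2150, 24800 ± 3240 and 33700 ± 3240. Treated kidneys did not overlap aged ones in either RNA. Rn45s was 204 to 265 in treated against 329 to 565 in aged kidneys, and 7SL 30700 to 39100 against 21100 to 30500. With either as a covariate, its part and that of treatment therefore cannot be told apart. With the 7SL level as a covariate, 4 members were called lower, namely Ncl, Rrs1, Wdr43 and Dkc1. With the Rn45s level as a covariate, 11 members were called, 9 lower and 2 (Dkc1 and Nob1) higher. In that fit Ncl (-0.64, adjusted p = 0.0014), Rrs1 (-0.59, adjusted p = 0.0018) and Myc (-0.93, adjusted p = 0.0011) were among the lower. Proliferation markers had sums of 0.376 to 0.649, 0.463 to 1.48 and 0.242 to 0.576 in young, aged and treated kidneys, and both tested ones fell. The part of the cell markers in these falls was not tested.

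In liver, 2 genes rose and 2 fell of 30 under RAD001, where 15.7% of 8991 loci were called, 7.62% higher and 8.13% lower. Myc and Dkc1 rose, and Ncl and Npm1 fell. The median change was 0.01, beside -0.00095 over all tested loci.

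Dkc1, dyskerin, the pseudouridine synthase of box H/ACA particles, was 0.36, 0.648 and 0.76 in young, 0.363, 0.634 and 0.862 in aged and 0.823, 0.89 and 0.997 in treated livers. Treated libraries lay above all young ones, as did 1.86% of loci, and overlapped only the top of the aged range. Dkc1 rose by 0.55 ± 0.14 (adjusted p = 0.012). In kidney its medians were 1.32, 1.31 and 1.3, and the kidney minus liver difference was -0.57 ± 0.17 (adjusted p = 0.0097). Vehicle livers were also more variable in 7SL, at 18900 ± 5660 and 18500 ± 4890 in young and aged against 22400 ± 1360 in treated livers. With 7SL as a covariate the Dkc1 change was 0.30 (adjusted p = 0.021).

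Ncl was 0.583, 0.68 and 0.818 in young, 0.477, 0.749 and 0.93 in aged and 0.435, 0.542 and 0.603 in treated livers. Treated libraries reached into the low end of both vehicle groups. It fell by 0.37 ± 0.08 (adjusted p = 0.0060), less than in kidney by 0.53 ± 0.11 (log2; adjusted p = 4.1e-04). Npm1 was 2.87, 3.6 and 5.5 in young, 2.99, 3.81 and 5.67 in aged and 2.72, 3.06 and 3.36 in treated livers. It fell by 0.37 ± 0.11 (adjusted p = 0.025), a call lost without treated liver 3 or aged liver 8 (adjusted p = 0.0516 and 0.0523).

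**Figure D4:**
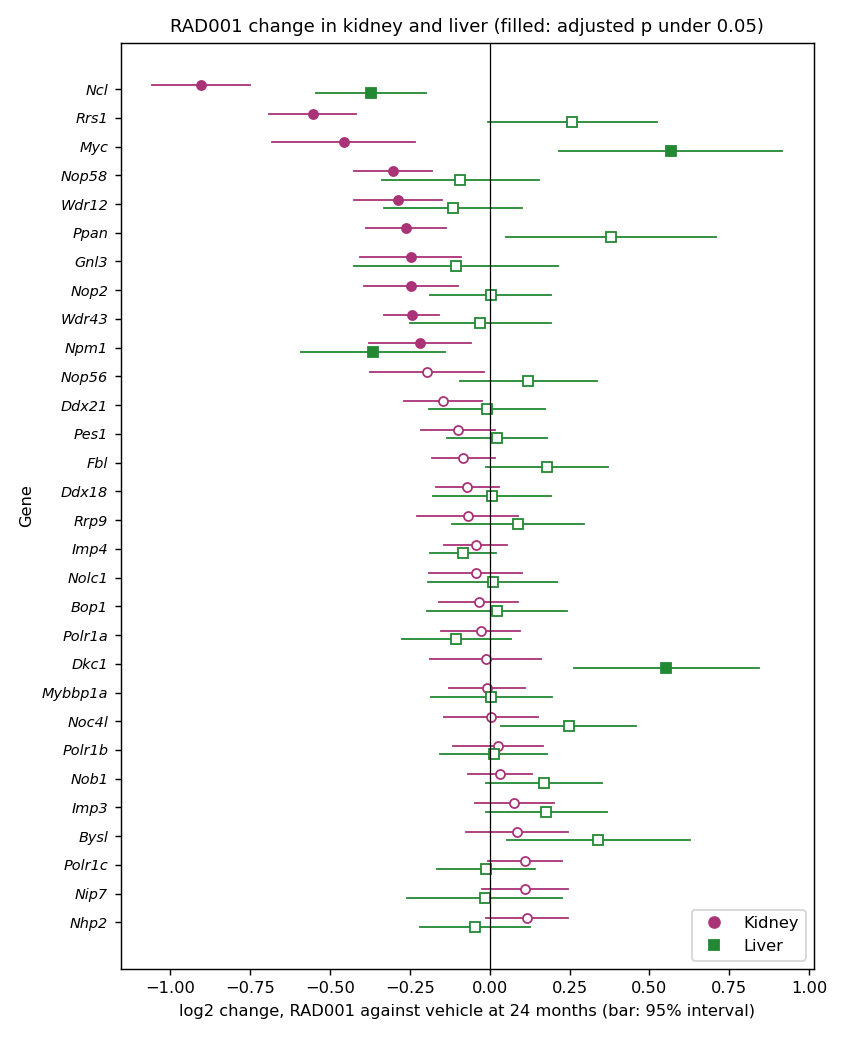
Change under RAD001 (log2, horizontal axis) of the 30 genes tested in both kidney (circles) and liver (squares), ordered by the kidney change; bars are 95% intervals from limma and filled symbols have an adjusted p under 0.05. Ncl and Npm1 are filled and negative in both tissues, while Myc is filled on opposite sides of 0 (-0.46 in kidney, 0.57 in liver).

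With age in liver, 7 genes rose and 0 fell of 30 by limma (13 higher and 0 lower at an unadjusted p under 0.05), where 16.6% of loci were called, 7.86% higher and 8.71% lower. Their median change was 0.17, beside 0.0023 over all loci. Polr1c, a subunit shared by polymerases I and III, was 0.6, 0.816 and 1 in young, 0.972, 1.08 and 1.26 in aged and 0.918, 1.11 and 1.2 in treated livers. It rose by 0.38 ± 0.07 (adjusted p = 3.1e-04), and the aged and young ranges met only at their ends. Ddx18, a helicase of the large subunit, was 0.314, 0.517 and 0.661 in young, 0.617, 0.696 and 0.867 in aged and 0.552, 0.725 and 0.809 in treated livers. It rose by 0.38 ± 0.09 (adjusted p = 0.0023), with a short overlap between young and aged.

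Nob1, the endonuclease that makes the last cut of 18S rRNA, was 0.319, 0.529 and 0.66 in young, 0.572, 0.64 and 0.882 in aged and 0.662, 0.747 and 0.843 in treated livers. It rose by 0.32 ± 0.08 with age (adjusted p = 0.0086), and the young and aged ranges overlapped. Wdr43 rose by 0.32 ± 0.10 (adjusted p = 0.029), from a median of 0.501 to 0.642 with overlapping ranges. Ppan rose by 0.44 ± 0.15 (adjusted p = 0.046), Nop2 by 0.27 ± 0.09 (adjusted p = 0.033) and Nhp2 by 0.24 ± 0.08 (adjusted p = 0.034). Each of these last 4 calls was lost on leaving out some single libraries. Without aged liver 1 or young liver 5, 3 members were called, and without aged liver 7 or 9 or young liver 8, 4 were. Markers of other cell types moved beside these. Of 11 tested macrophage markers 5 rose with age and 8 were higher in treated than young livers. Sums over all 14 macrophage loci were 13.4 to 21.4 in young, 16.7 to 28.9 in aged and 21.7 to 30.5 in treated livers. Of 4 tested erythroid genes 2 rose with age and all 4 were higher in treated than young livers. Sums over all 6 erythroid loci were 23.7 to 35.1, 27.9 to 59.9 and 38.2 to 86.7. Of 5 fibroblast markers 2 fell with age. The part of these in the liver changes, Myc included, was not tested.

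Treated livers were higher than young ones in 11 genes and lower in 2, where 34.9% of loci were called, 17.0% higher and 18.0% lower. The 6 age risers other than Nhp2 were among the 11, with Myc, Dkc1, Rrs1, Nop56 and Imp3. Nob1 was, like Dkc1, above all young libraries in every treated one, as were 1.86% of loci. Nob1 was higher by 0.49 ± 0.09 (adjusted p = 1.5e-04). Ppan was 0.199, 0.361 and 0.516 in young, 0.288, 0.52 and 0.722 in aged and 0.45, 0.73 and 0.81 in treated livers. Its groups overlapped, and it was 0.82 ± 0.16 above young (adjusted p = 3.6e-04). Polr1c was higher by 0.36 ± 0.07 (adjusted p = 5.4e-04). Ncl and Imp4 were lower, by 0.29 and 0.16 (adjusted p = 0.0079 and 0.017).

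In the other lists in liver, 8 of 48 other large subunit factors, 3 of 40 small subunit factors and 4 of 14 polymerase I genes rose with age, beside 7.86% of loci, and 0 fell by limma (19, 14 and 8 higher and 0 lower at an unadjusted p under 0.05). Utp14a, a small subunit factor, rose by 0.38 ± 0.07 (adjusted p = 2.4e-04), and Rrn3, the initiation factor that mTOR signalling regulates, rose by 0.20 ± 0.05 (adjusted p = 0.011). Under RAD001, 2 of 48 large subunit factors rose and 5 fell, and 2 of 40 small subunit factors and 2 of 14 polymerase I genes fell, beside 8.13% of loci lower. Of 24 other Myc targets, 6 fell under RAD001 and 0 rose by limma (11 lower and 1 higher at an unadjusted p under 0.05), led by the mitochondrial chaperone Hspd1 (-0.42 ± 0.08, adjusted p = 0.0015). Rn45s was 328 ± 98.8, 328 ± 81.6 and 420 ± 42.3 in young, aged and treated livers (mean ± SD). With it as a covariate 0 members were called under RAD001 by limma (3 lower and 2 higher at an unadjusted p under 0.05).

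In gastrocnemius, age was the comparison with most calls. Of 29 tested genes, 15 rose and 1 fell, where 35.4% of 8836 loci were called, 17.0% higher and 18.4% lower. The median change was 0.19, beside 0.0018 over all loci. The risers were Polr1a and Polr1c, Nop58, Dkc1 and Nhp2, Npm1, Wdr43 and Nob1, Nop2, Rrs1, Ppan, Bop1, Pes1 and Nip7, and the helicase Ddx21. Genes with like roles, among them Polr1b, Fbl, Nop56, Rrp9, Ncl, Gnl3 and Nolc1, were not called. The single fall was Noc4l, a small subunit factor (-0.17 ± 0.07, adjusted p = 0.046), and it was lost in 14 fits that left out 1 library. Without scaling, the median of all loci moved to 0.12 and the calls over all loci went from 48.0% higher to 85.9% higher. The member count was then 20 higher and 0 lower by limma (22 higher and 0 lower at an unadjusted p under 0.05). Cell markers moved beside these genes. With age 5 of 8 muscle markers fell, with sums of 4400 to 5150 in young, 3320 to 4750 in aged and 4150 to 4810 in treated libraries. Of 7 fibroblast markers 3 fell, the collagens Col1a1 (-1.67), Col1a2 (-1.21) and Col3a1 (-0.84), with sums of 23.5 to 45.1, 19.7 to 29.2 and 18.7 to 28.7. Of 12 macrophage markers 8 rose. Proliferation marker sums were 0.918 to 1.8, 0.29 to 0.6 and 0.29 to 0.463, and the 1 tested marker, Tpx2, fell by 1.71. The part of these in the age result was not tested.

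Polr1a, the largest subunit of RNA polymerase I, was 0.298, 0.377 and 0.444 in young, 0.446, 0.493 and 0.709 in aged and 0.374, 0.516 and 0.591 in treated gastrocnemius. Every aged library lay above every young one, as did 3.01% of loci. It rose by 0.37 ± 0.07 (adjusted p = 1.7e-04). Nhp2 was 1.44, 1.67 and 1.91 in young, 1.8, 1.99 and 2.22 in aged and 1.36, 1.71 and 1.97 in treated libraries. It rose with age by 0.28 ± 0.06 (adjusted p = 6.8e-04), with a short overlap.

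Nop2 was 0.142, 0.195 and 0.227 in young, 0.194, 0.241 and 0.276 in aged and 0.188, 0.209 and 0.233 in treated gastrocnemius. It rose by 0.23 ± 0.06 (adjusted p = 0.0020). Rrs1 was 0.106, 0.16 and 0.213 in young, 0.178, 0.206 and 0.286 in aged and 0.153, 0.19 and 0.25 in treated libraries, and rose by 0.28 ± 0.07 (adjusted p = 0.0025). For both the aged and young ranges overlapped. Of the 29 members tested in all 3 tissues, Wdr43 and Ppan were called higher with age in each, as were 1.11% of 7647 loci. Their liver calls, and those of Ppan in kidney and gastrocnemius, were lost on leaving out some single libraries, in gastrocnemius young 4 or aged 1 or 5 (adjusted p 0.0507 to 0.0662).

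Under RAD001 in gastrocnemius, 2 genes rose and 1 fell of 29, where 3.37% of loci were called, 1.72% higher and 1.65% lower. Npm1 was 1.66, 2.02 and 2.41 in young, 2.03, 2.46 and 2.75 in aged and 2.53, 2.88 and 3.78 in treated libraries. It rose with age by 0.27 ± 0.07 (adjusted p = 0.0034) and again under RAD001 by 0.27 ± 0.08 (adjusted p = 0.039). All treated libraries lay above all young ones, as did 3.12% of loci. Bysl, bystin, a small subunit factor, was 0.311, 0.558 and 0.742 in young, 0.414, 0.469 and 0.577 in aged and 0.508, 0.623 and 0.889 in treated libraries. It rose under RAD001 by 0.43 ± 0.12 (adjusted p = 0.044). Nhp2 fell by 0.23 ± 0.07 (adjusted p = 0.047). Without scaling, without the filter and with Rn45s as a covariate, 0 members were called by limma (6, 7 and 5 at an unadjusted p under 0.05). All 3 calls were lost on leaving out treated gastrocnemius 1, 6 or 7 or aged gastrocnemius 3, 7 or 10. On leaving out treated 5, aged 1, 6, 8 or 9, or young 5, only 1 was called.

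Treated gastrocnemius was higher than young in 10 genes and lower in 1, where 36.5% of loci were called, 17.9% higher and 18.6% lower. Npm1 was 0.55 ± 0.08 higher (adjusted p = 1.5e-06) and Dkc1 0.30 ± 0.06 higher (adjusted p = 3.5e-04). Ncl was 0.0946, 0.12 and 0.209 in young, 0.125, 0.18 and 0.242 in aged and 0.173, 0.216 and 0.294 in treated libraries, with overlapping groups. It was 0.44 ± 0.10 above young (adjusted p = 6.0e-04), whereas in kidney and liver it was below young. The difference of this contrast between tissues was not tested. Nop58 was 0.32 ± 0.08 higher (adjusted p = 0.0017). Wdr12 was the 1 lower gene (-0.20 ± 0.07, adjusted p = 0.018), and without treated gastrocnemius 7 its adjusted p was 0.052.

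Among the other lists in gastrocnemius, 11 of 49 large subunit factors rose with age and 0 fell by limma (14 higher and 1 lower at an unadjusted p under 0.05). Of 40 small subunit factors, 9 rose and 1 fell. Among the other polymerase I genes only Taf1b, Taf1d and Polr1e were called with age, all higher. Among the other small nucleolar particle factors Ruvbl1 rose and Coil fell. With age, 17.0% of all tested loci rose and 18.4% fell. Ftsj3, a pre-rRNA methyltransferase, rose by 0.32 ± 0.05 (adjusted p = 1.0e-05), and Rrp7a, a small subunit factor, rose by 0.30 ± 0.06 (adjusted p = 1.8e-04). Under RAD001 the large and small subunit lists each had 1 gene higher and 1 lower, beside 1.72% and 1.65% of all tested loci. In the polymerase I and particle lists only Polr2f and Ruvbl1 were called under RAD001, both lower. Of 24 other Myc targets, 6 rose and 8 fell with age. Tfrc, the transferrin receptor, fell by 1.93 ± 0.13 (adjusted p = 2.3e-12), and Cdc25a, a cell cycle phosphatase, rose by 0.55 ± 0.07 (adjusted p = 1.2e-07). Rn45s was 352 ± 67.3, 234 ± 31.2 and 280 ± 19.6 in young, aged and treated libraries, and with it as a covariate 1 member, Nhp2, was called with age.

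**Figure D5:**
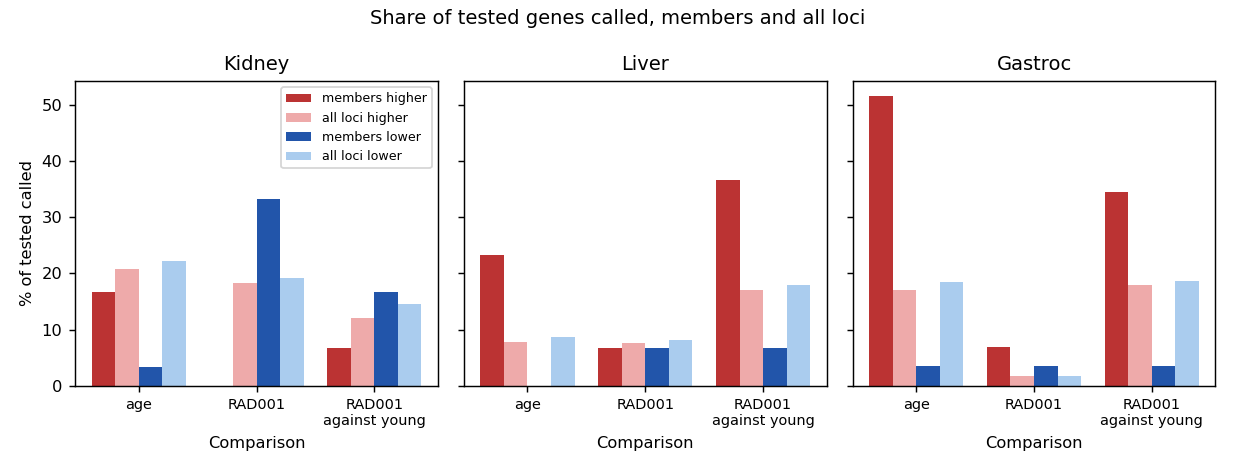
Percentage of tested genes called higher or lower (vertical axis, from 0) in each comparison (horizontal axis), for the members (dark bars) and for all tested loci (light bars). In kidney under RAD001 the members were 33.3% lower and 0% higher beside 19.1% and 18.3% of all loci; in gastrocnemius with age they were 51.7% higher beside 17.0%.

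Tissues were compared by testing the difference of the same change between them. These tests took all libraries as independent, though most same-numbered kidney and liver libraries correlated above 0.1. For RAD001, kidney and liver differed in 5 genes (27.0% of loci did), all more negative in kidney: Myc, Ncl, Dkc1, Rrs1 (-0.81 ± 0.15, adjusted p = 5.4e-05) and Ppan (-0.64 ± 0.18, adjusted p = 0.0052). Kidney and gastrocnemius differed in 6 genes (28.3% of loci). Ncl (-1.13 ± 0.12, adjusted p = 7.1e-10), Npm1, Nop58 and Rrs1 were more negative in kidney, and Nhp2 and Nip7, a large subunit factor, more positive. Liver and gastrocnemius differed in Ncl (-0.60 ± 0.13) and Npm1 (-0.64 ± 0.14), with adjusted p = 0.0084 and 0.0083 and 4.34% of loci called.

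For age, kidney and liver differed in Polr1c (-0.45 ± 0.09, adjusted p = 1.1e-04), Nob1 and Ddx18, each more negative in kidney (24.2% of loci were called). Kidney and gastrocnemius differed in 9 genes (34.6% of loci). Of these 8 were more negative in kidney, among them Polr1a (-0.39 ± 0.09, adjusted p = 6.9e-04) and Imp4 (-0.30 ± 0.07, adjusted p = 6.2e-04), and Noc4l was more positive (0.33 ± 0.09, adjusted p = 0.0046). Liver and gastrocnemius differed in Imp4 (-0.20 ± 0.07) and Ddx18 (0.43 ± 0.11), with 22.4% of loci called. Within a tissue each pair of comparisons shares 1 group of libraries: aged vehicle for age and RAD001, young for age and RAD001 against young, and treated for RAD001 and RAD001 against young. Agreement between them, or an opposite sign, is therefore not read as a result.

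Of the 31 genes, 4 were called in none of the 9 within-tissue comparisons: Fbl, Polr1b, Rrp9 and Gar1, the last because it was below the filter. Over loci tested in all 3 tissues 13.7% were called in none. In a fit without the filter Gar1 was lower under RAD001 in kidney (-0.37, adjusted p = 0.0020). Npm1 was called in 6 comparisons (3.94% of those loci were called in at least 6), higher with age in kidney and gastrocnemius, lower under RAD001 in kidney and liver, and higher under RAD001 in gastrocnemius and against young there. Bop1, Imp4 and Mybbp1a overlap a neighbouring locus by 2019, 222 and 278 bases, and Nop56 does by 1 base. Nhp2 has a second locus of the same span (chr10:34748309-34751683 of rn5). Reads in the overlaps, and those of Nhp2, could not be divided between loci with certainty. The second Nhp2 locus had a mean of 0.24 in aged and 0.0993 in treated kidneys, against 1.89 and 2.06 at the locus used.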

How the data were processed

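RNA was sequenced from 84 libraries of 3 tissues, grouped by the labels' age and treatment. The submitters' processing notes name STAR 2.4.5a and the build rn5. Which tool summarised the reads is not stated in these sources. The deposited value of a locus is a signal, namely read coverage averaged over its exonic bases and multiplied by 1 factor per library, as read from the values themselves. Read numbers are not stated, so depth is known only between libraries, and values near 0 carry little precision. Whether counting used strand is not stated.

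Loci at 0.1 or more in at least 8 libraries of a tissue entered its fit. Scaling used trimmed means of log ratios (30% off each side). limma 3.58.1 in R 4.3.3 fitted log2(value + 0.1) with 25 residual degrees of freedom and Benjamini-Hochberg adjustment over all loci of the tissue. Tissue differences came from joint fits. The fits were tested on simulated data. Other software was Python 3.11.15 with NumPy 2.4.6, pandas 2.3.3 and matplotlib 3.10.9, and the R package data.table (version 1.17.8). Promoter windows are from RefSeq, and coordinates of loci are rn5 as deposited. The members and lists were chosen with earlier results of these data known. Full values are given for Myc and, per tissue and contrast, the called members with the 4 smallest p, with up to 2 called genes per other list. Alternatives were other scalings, pseudocounts of 0.01 and 0.5, other filters, the replicate block, 7SL as a covariate, only the groups compared, each library left out and, chosen after seeing the data, Rn45s as a covariate.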

Additional observations from a re-analysis of the deposited data

Results flagged for a closer look

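In 279 combinations of gene and group, 19 single libraries of 13 genes stood apart from the rest of their group by Dixon's criterion, and chance flags about 1 in 20 groups. Values are scaled coverage, with the nearest other library after each. In kidney, the lowest library was 1.09 (next 1.28) for Fbl and 0.423 (0.547) for Rrs1 and 0.227 (0.319) for Nolc1 in the young group. It was 1.19 (1.38) for Fbl and 0.427 (0.522) for Bop1 in the aged group, and 0.885 (1.02) for Ddx18 in the treated group. Rrs1 and Nolc1 were lowest in the same library, young kidney 3.

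In liver, young library 8 was lowest for Nhp2 at 0.75 (0.995) and for Ddx18 at 0.314 (0.456). Treated library 9 was lowest for Pes1 at 0.496 (0.617) and highest for Wdr12 at 0.778 (0.607). Aged library 7 was highest for Ddx21 at 1.13 (0.825).

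In gastrocnemius, young library 3 was highest for Wdr43 at 0.76 (0.586) and for Pes1 at 0.688 (0.545), young library 4 was lowest for Ppan at 0.21 (0.289) and young library 2 highest for Noc4l at 0.165 (0.121). Aged library 5 was highest for Noc4l at 0.146 (0.0977) and aged library 2 lowest for Npm1 at 2.03 (2.34). Treated library 2 was highest for Rrs1 at 0.25 (0.194) and for Pes1 at 0.853 (0.649).

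In addition, 27 changes differed between tissues in the tests of the difference itself (adjusted p under 0.05, limma). Of all loci, 24.2% differed for age and 27.0% for RAD001 between kidney and liver, and 34.6% and 28.3% between kidney and gastrocnemius. Between liver and gastrocnemius 22.4% and 4.34% did. For RAD001, kidney minus liver was -1.02 for Myc, -0.53 for Ncl, -0.57 for Dkc1, -0.81 for Rrs1 and -0.64 for Ppan. Kidney minus gastrocnemius was -1.13 for Ncl, -0.49 for Npm1, -0.43 for Nop58, -0.44 for Rrs1, 0.34 for Nhp2 and 0.27 for Nip7. Liver minus gastrocnemius was -0.60 for Ncl and -0.64 for Npm1. For age, kidney minus liver was -0.45 for Polr1c, -0.39 for Nob1 and -0.28 for Ddx18. Kidney minus gastrocnemius was -0.23 for Nop2, -0.31 for Rrs1, -0.39 for Polr1a, -0.31 for Polr1c, -0.24 for Bop1, -0.30 for Imp4, -0.29 for Nob1, -0.24 for Nip7 and 0.33 for Noc4l. Liver minus gastrocnemius was -0.20 for Imp4 and 0.43 for Ddx18. The causes were not tested.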

How the results depend on the processing

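The counts of called members stayed within 1.5 times in 100 of 129 recomputations. The filter at 1, which tests fewer genes, gave 2, 2 and 3 called in kidney for age, RAD001 and RAD001 against young, 2, 1 and 3 in liver, and 5 (age) and 4 (against young) in gastrocnemius. Under it the tissue differences numbered 1, 0, 2, 2, 1 and 1 for age and then RAD001 in kidney against liver, kidney against gastrocnemius and liver against gastrocnemius. Upper-quartile scaling gave 12 called with age in kidney and 8 kidney-liver differences under RAD001. It moved the share of calls that were higher over all loci from 48.4% to 64.6% with age in kidney, from 49.0% to 33.5% under RAD001 in kidney, from 48.4% to 63.2% under RAD001 in liver and from 48.5% to 60.3% in treated against young liver. Unscaled values gave 62.8% with age in kidney, 66.6% and 28.9% for age and RAD001 in liver, and 9.09% and 73.4% for RAD001 and treated against young gastrocnemius. With 7SL as a covariate, 4 were called under RAD001 in kidney, 2 in liver, and 7 and 5 in gastrocnemius for age and treated against young. With Rn45s, chosen after seeing the data, the counts were 4 in treated against young kidney, 0 under RAD001 in liver and, in gastrocnemius, 1 with age, 0 under RAD001 and 7 in treated against young. In kidney, treated libraries did not overlap vehicle ones in 7SL or Rn45s, so neither can be told apart from treatment there. The 3 calls under RAD001 in gastrocnemius were 0 without scaling, without the filter and with the replicate block. At an unadjusted p under 0.05 by limma, these counts of 0 became 5 in liver with Rn45s and 5, 6, 7 and 6 in gastrocnemius (Rn45s, no scaling, no filter, block), and the 0 kidney-liver differences under RAD001 stayed 0 of 6 members tested. The causes were not tested.

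Within tissues the replicate numbers did not pair the samples: same-numbered libraries correlated above 0.1 in at most 6 of 10 pairs. Across kidney and liver 8 of 10 young, 7 of 10 aged and 7 of 8 treated pairs did, and 7, 3 and 6 libraries correlated best with their own number. Across the other tissue pairs 2 to 5 pairs a group did, and 2 to 4 libraries correlated best with their own number. The labels do not say whether the same number in different tissues is the same rat, and the main tests of tissue differences took libraries as independent. Within tissues the replicate block gave 6, 9 and 8 calls in kidney, 10, 3 and 13 in liver and 15, 0 and 11 in gastrocnemius. Across tissues, with group and number taken as a rat, the block gave 8 kidney-liver differences under RAD001, against 5 without it.

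Leaving out 1 library gave 5 to 7, 9 to 12 and 6 to 8 calls in kidney (age, RAD001, RAD001 against young), 3 to 10, 3 to 5 and 11 to 15 in liver and 14 to 18, 0 to 3 and 9 to 13 in gastrocnemius. For single genes, 4 values reversed in sign: Npm1 under RAD001 in kidney with 7SL (0.0384), Dkc1 there with Rn45s (0.467, adjusted p = 0.0101), Dkc1 in treated against young kidney with 7SL (-0.33, adjusted p = 0.00827) and Myc there with Rn45s (-0.168). Of the other single-gene values outside the leave-one-out fits, 3304 kept direction and side of the threshold, 111 lost the call and 64 gained one. Low coverage limits Myc in gastrocnemius and Gar1 in every tissue. Myc is limited in kidney and liver too, where its young levels were all and mostly under 0.1, respectively.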
